A study of Mus musculus with 12 samples.

Results

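Expression of 9 genes of granule cell migration and neurotrophin signaling was measured in mouse medulloblastoma (MB) and cerebellum. The members were chosen by name as rows of a gene table of 24091 genes, and 9 of 9 were found. They are the chemokine receptor gene *Cxcr4* and its ligand gene *Cxcl12*, the astrotactins *Astn1* and *Astn2*, the contactins *Cntn1* and *Cntn2*, and the neurotrophin *Bdnf* with the receptor genes *Ntrk2* and *Ntrk3*. RNA sequencing covered 12 samples in 4 groups of 3 mice. The tumors came from Brca2-mut;Trp53-mut mice GB344, GB359 and GB370, and the adjacent cerebellum came from the same 3 mice. The control cerebella, collected at P90, came from Brca2-mut;Trp53-WT mice GB361, GB508 and GB512 and from Brca2-WT;Trp53-mut mice GB517, GB519 and GB520. The *Brca2* mutation (*Brca2* Δex3-4) removes exons 3 and 4 in the central nervous system through the hGFAP-Cre transgene, whereas the *Trp53* mutation is a knockout in all cells. No group is wild type at both genes, the control genotypes differ from each other at both, and the labels give no age for the tumor-bearing mice and no Cre status for the Brca2-WT mice. Only the tumor-bearing mice are mutant at both genes, so in comparisons with controls tissue and genotype cannot be told apart.

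Granule cells are born from granule cell progenitors (GCPs) in the external granule layer and move inward along Bergmann glia as they mature. CXCL12, made by the meninges, signals through CXCR4 and holds GCPs at the outer surface of the cerebellum, while the astrotactins act in the neuron-glia adhesion used for the inward path. Contactin-2 marks young granule neurons that have left the cell cycle and contactin-1 appears as their axons mature. BDNF acts through TrkB (*Ntrk2*), and neurotrophin-3 acts through TrkC (*Ntrk3*).

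Values are TPM, in which reads are divided by transcript length and then by their sum over the sample. Levels of different genes can thus be compared within a sample. Between samples a TPM is a share of each total, so a comparison also depends on the rest of the RNA. Some member changes near 0 or near the fold minimum, and counts over all genes, moved under other scalings, as given below. The depth behind each value is unknown, because TPM keep no read counts. *Brca2* ranged from 8.22 to 14.6 TPM in tumors and from 3.24 to 4.40 TPM in controls. *Trp53* ranged from 124 to 130.5 TPM in tumors, from 33.1 to 37.2 TPM in Brca2-mut;Trp53-WT controls and from 47.1 to 49.4 TPM in Brca2-WT;Trp53-mut controls, although the latter are labelled as mutant. Because a TPM sums every transcript of a gene, those with deleted exons included, these levels say nothing of whether a label is right. The summed level of 4 GCP markers was 294, 239 and 31.2 TPM in the adjacent cerebella of GB344, GB359 and GB370. In 6 controls it was between 10.6 and 24.7 TPM. Of these markers, *Mki67* and *Top2a* were lower in adjacent GB370 (2.72 and 5.53 TPM) than in control GB512 (5.63 and 8.42 TPM). *Atoh1*, the defining GCP transcription factor, was at 59.4, 50.5 and 4.997 TPM in the adjacent cerebella of GB344, GB359 and GB370, against at most 0.212 TPM in 6 controls. Member values and list medians that rest on the adjacent cerebella are also given for GB370 alone, a choice made after the data were seen. GB370 holds fewer of these markers and is not free of them.

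In tumors the mean levels of the members, in TPM, ran from *Cxcr4* (189.9 ± 42.9, SD, n = 3) through *Cntn2* (102 ± 21.5), *Ntrk3* (88.1 ± 51.5), *Cntn1* (31.3 ± 10.2), *Astn2* (28.6 ± 5.06), *Ntrk2* (23.1 ± 5.25), *Astn1* (17.8 ± 4.32) and *Cxcl12* (16.5 ± 3.57) to *Bdnf* (1.75 ± 0.362). *Cxcr4* stood above *Cntn2* in every tumor without overlap, and *Bdnf* below *Cxcl12*. The ranges of *Cntn2* and *Ntrk3* overlapped, as did those of *Ntrk3* and *Cntn1* and of each neighboring pair from *Cntn1* to *Cxcl12*. In control cerebella the order ran from *Cntn1* (178 ± 14.5, SD, n = 6) through *Ntrk2* (132 ± 11.5), *Cntn2* (106 ± 16.9), *Astn2* (89.6 ± 5.65), *Ntrk3* (79.9 ± 7.05), *Cxcl12* (36.4 ± 3.91), *Astn1* (30.3 ± 2.78) and *Bdnf* (10.2 ± 2.08) to *Cxcr4* (6.40 ± 2.11). *Cntn1* stood above *Ntrk2*, *Ntrk3* above *Cxcl12* and *Astn1* above *Bdnf* without overlap, while the other neighboring pairs overlapped. *Cxcr4* thus had the lowest mean of the 9 members in controls and the highest in tumors. Among genes above 0 TPM, its mean was at percentile 96.3 in tumors and 42.9 in controls, while that of *Cntn1* was at 71.3 and 95.4.

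**Figure D1:**
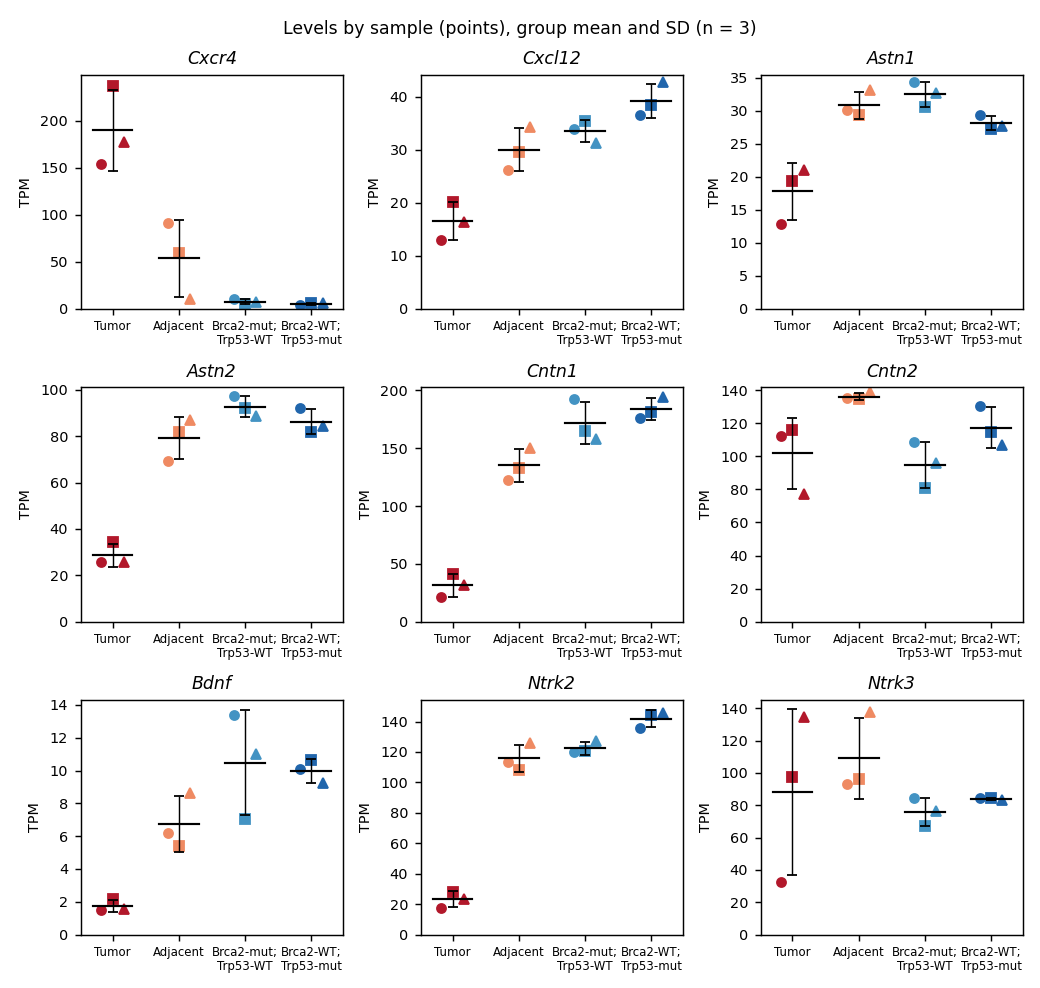
TPM of each member in every sample, with the group mean (horizontal bar) and SD (vertical bar) of 3 mice. Circle, square and triangle stand for GB344, GB359 and GB370 in tumor and adjacent cerebellum, and for the mice of each control genotype in ascending number. The 3 tumors lie apart from the 6 controls for all members but *Cntn2* and *Ntrk3*.

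The comparison of tumors with the 6 control cerebella asked which members differ between MB and adult cerebellum. The limma test ran on log2(TPM + 1) for 16241 genes, and to be called a gene needed a log2 fold change of 1 or more in size as well as an adjusted p under 0.01. By these limits 1 of 9 members was called higher, against 14.4% of all genes tested, and 5 of 9 were called lower, against 21.5% of all genes. The median log2 fold change was -1.11 over the members and -0.11 over all genes. For 7 members the tumors did not overlap the controls, 1 higher and 6 lower, against 28.3% and 35.7% of all genes.

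*Cxcr4* encodes the receptor that keeps progenitors near the meninges. Its level was 154, 238 and 178 TPM in the tumors of GB344, GB359 and GB370. In controls it was 9.98, 4.66 and 7.35 TPM in GB361, GB508 and GB512, and 4.16, 6.52 and 5.72 TPM in GB517, GB519 and GB520. Every tumor was far above every control. The mean was 29.7-fold higher in tumors, the log2 fold change was 4.71 (95% interval 4.19 to 5.23, limma adjusted p = 5.19e-08), and by this change *Cxcr4* ranked 74 of 16241 genes.

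*Cxcl12*, the gene of the ligand, moved the other way. It was at 13.0, 20.2 and 16.4 TPM in the tumors of GB344, GB359 and GB370. The 6 controls were at 34.0, 35.4 and 31.3 TPM in GB361, GB508 and GB512, and at 36.5, 38.5 and 42.7 TPM in GB517, GB519 and GB520. No tumor reached the lowest control. The mean was 2.20-fold lower in tumors, with a log2 fold change of -1.11 (95% interval -1.41 to -0.80, limma adjusted p = 3.6e-05). This change lies near the fold minimum. It was no longer called without the tumor of GB344 (-0.96), under median-of-ratios scaling (-0.998), under quantile normalization (-0.96), against Brca2-mut;Trp53-WT controls alone (-0.999) or against controls GB508 and GB512 alone (-0.99). Within a sample, the ratio of *Cxcr4* to *Cxcl12* was between 10.8 and 11.9 in tumors and between 0.114 and 0.294 in controls.

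The sequences upstream of these genes are shown because they form the receptor and ligand pair whose tumor levels lay above and below all controls. Each run holds 250 bases that end just before a transcription start, read 5′ to 3′ on the strand of the gene, from RefSeq on GRCm38.p6. The window of *Cxcr4* is chr1:128592300-128592549 on the minus strand, and that of *Cxcl12* is chr6:117168285-117168534 on the plus strand. Capitals mark TATAAA on either strand, whose overlapping matches in *Cxcr4* lie 30 and 32 bases before the start.
Cxcr4: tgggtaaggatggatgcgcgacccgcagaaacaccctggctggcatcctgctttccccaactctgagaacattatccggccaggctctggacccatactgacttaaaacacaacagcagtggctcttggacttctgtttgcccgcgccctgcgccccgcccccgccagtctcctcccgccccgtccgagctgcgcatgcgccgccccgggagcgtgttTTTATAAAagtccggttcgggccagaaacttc
Cxcl12: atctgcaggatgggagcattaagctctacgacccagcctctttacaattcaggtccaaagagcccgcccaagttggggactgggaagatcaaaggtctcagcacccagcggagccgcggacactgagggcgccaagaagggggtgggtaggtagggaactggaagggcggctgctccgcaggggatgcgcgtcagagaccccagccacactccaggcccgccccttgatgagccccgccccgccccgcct

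TATAAA, which was added to the search after the window of *Cxcr4* was read, occurs in 12.4% of 32851 windows of this length. The GLI consensus GACCACCCA and the cAMP response element TGACGTCA were not found in any of 16 windows of the 8 members with an entry (7 windows for *Bdnf* and 3 for *Cntn1*). They occur in 0.225% and 1.55% of all windows. TATAAA was also found in 1 of the 3 windows of *Cntn1*, 181 bases before the start. These are matches of letters only.

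The chemokine list fixed for comparison held 6 other genes, namely *Ackr3*, *Dpp4*, *Cxcl14*, *Gnai2*, *Arrb2* and *Grk6*. Of these, 1 was called lower and 0 higher, against 21.5% and 14.4% of all genes. *Ackr3*, a scavenging receptor that also binds CXCL12, had a mean of 3.39 TPM in tumors and 8.71 TPM in controls, with a log2 fold change of -1.14 (limma adjusted p = 7.52e-06). The other 5 ranged from -1.15 to 0.83 on the log2 scale.

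The astrotactins are membrane proteins of migrating neurons, and ASTN2 regulates the display of ASTN1 at the cell surface. *Astn2* was at 25.7, 34.4 and 25.6 TPM in the tumors of GB344, GB359 and GB370. Among controls its level was 97.4, 92.4 and 88.7 TPM in GB361, GB508 and GB512, and at 92.4, 82.1 and 84.6 TPM in GB517, GB519 and GB520. All tumors were below all controls. The fall was 3.13-fold in the means and the log2 fold change was -1.63 (95% interval -1.86 to -1.39, limma adjusted p = 2.61e-07). *Astn1* was at 12.9, 19.4 and 21.1 TPM in tumors, in the same order. Control levels were 34.3, 30.5 and 32.7 TPM in GB361, GB508 and GB512, and at 29.3, 27.3 and 27.8 TPM in GB517, GB519 and GB520. The groups did not overlap for *Astn1* either, but its log2 fold change of -0.76 (95% interval -1.09 to -0.43, limma adjusted p = 0.00086) was under the fold minimum, so it was not called. The ratio of *Astn2* to *Astn1* was between 1.22 and 1.99 in tumors and between 2.71 and 3.15 in controls.

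Contactins are cell adhesion proteins anchored to the membrane of axons. *Cntn1* was at 21.0, 41.3 and 31.8 TPM in the tumors of GB344, GB359 and GB370. The controls held 192, 165 and 158 TPM in GB361, GB508 and GB512, and at 176, 182 and 194 TPM in GB517, GB519 and GB520. The highest tumor was well below the lowest control. The mean was 5.67-fold lower in tumors, with a log2 fold change of -2.51 (95% interval -2.89 to -2.13, limma adjusted p = 3.82e-07). *Cntn2* was at 113, 116 and 77.0 TPM in tumors. Its control levels were 108, 80.6 and 96.0 TPM in GB361, GB508 and GB512, and at 131, 115 and 107 TPM in GB517, GB519 and GB520. These values overlapped, and the log2 fold change of *Cntn2* was -0.067 (95% interval -0.43 to 0.30, limma adjusted p = 0.73), which turned to 0.047 under median-of-ratios scaling and to 0.089 under quantile normalization. Within each tumor *Cntn2* exceeded *Cntn1*, at a ratio of 2.43 to 5.37, whereas in every control it was the lower of the pair, at a ratio of 0.488 to 0.743.

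The contactin list held 14 genes of contactins and their partners, of which 13 were tested and *Cntn5* was not. The number called lower was 12, and 0 were called higher, against 21.5% and 14.4% of all genes. *Cntn6* fell from a mean of 46.6 TPM in controls to 3.13 TPM in tumors, a log2 fold change of -3.68. *Cntn4* fell from 19.8 to 1.09 TPM and *Chl1*, a relative of the adhesion protein L1, from 69.3 to 11.0 TPM. The contactin-associated proteins *Cntnap4* and *Cntnap2*, which link contactins to the cytoskeleton at axonal domains and synapses, fell with log2 fold changes of -2.80 and -2.53. The gene not called was *Ptprg*, a receptor phosphatase that binds contactins, at 32.9 TPM in tumors and 16.9 TPM in controls, with a log2 fold change of 0.88.

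BDNF is a neurotrophin made by neurons. *Bdnf* was at 1.51, 2.16 and 1.56 TPM in the tumors of GB344, GB359 and GB370. Controls were at 13.4, 7.07 and 11.0 TPM in GB361, GB508 and GB512, and at 10.1, 10.7 and 9.23 TPM in GB517, GB519 and GB520. The tumors lay below every control, at a mean 5.86-fold lower, and the log2 fold change was -2.02 (95% interval -2.41 to -1.63, limma adjusted p = 2.53e-06). The added 1 makes this change smaller than the ratio of the means. In the annotation an antisense gene, *Gm45346*, overlaps 14.4% of the exon bases of *Bdnf*, and the library kit does not mark strand, so reads from that stretch cannot be assigned to either gene.

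*Ntrk2*, the gene of the BDNF receptor, is expressed by neurons and astrocytes. It was at 17.6, 28.1 and 23.5 TPM in the tumors of GB344, GB359 and GB370. Control cerebella were at 119.9, 120.4 and 128 TPM in GB361, GB508 and GB512, and at 136, 144 and 146 TPM in GB517, GB519 and GB520. No tumor came near the controls. The mean was 5.74-fold lower in tumors, with a log2 fold change of -2.49 (95% interval -2.78 to -2.19, limma adjusted p = 7.87e-08). Ligand and receptor were thus both called lower, and the ratio of *Ntrk2* to *Bdnf*, between 11.6 and 15.1 in tumors, lay within its range of 8.97 to 17.03 in controls.

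*Ntrk3*, the gene of the neurotrophin-3 receptor, varied most between tumors. It was at 32.7, 97.4 and 134 TPM in the tumors of GB344, GB359 and GB370. In controls it was at 84.3, 66.9 and 76.7 TPM in GB361, GB508 and GB512, and at 84.2, 84.2 and 83.3 TPM in GB517, GB519 and GB520. The tumor of GB344 was below every control and the other tumors were above every control. The log2 fold change was -0.076 (95% interval -0.84 to 0.69, limma adjusted p = 0.853), although the mean TPM was 1.10-fold higher in tumors. The sign turned under both other scalings, to 0.037 and 0.076, and without the tumor of GB344 the value was 0.52 (limma adjusted p = 0.00579, under the fold minimum). The ratio of *Ntrk3* to *Ntrk2* was between 1.86 and 5.71 in tumors and between 0.555 and 0.703 in controls. Both genes have transcripts with and without the kinase domain, and the values sum over them.

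**Figure D2:**
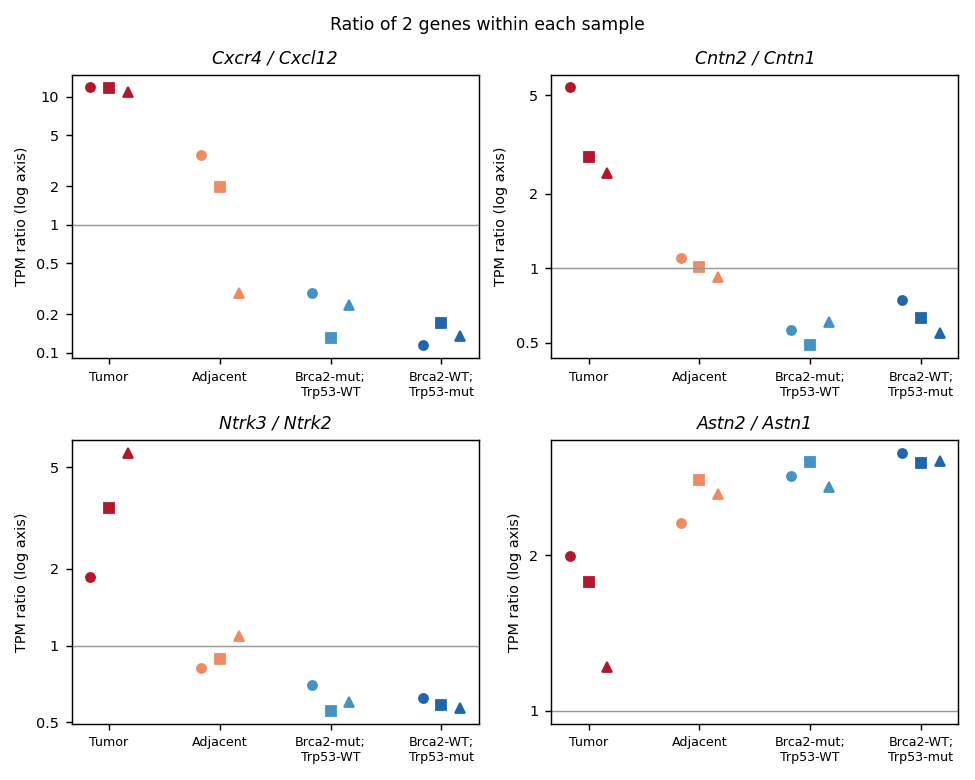
Ratio of the TPM of a pair of members within each sample, on log axes, with symbols for mice as in the plot of TPM by sample. The grey line marks equal levels, and the tumors lie apart from the 6 controls in all 4 panels.

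Upstream sequences are shown for *Astn1* and for 1 of 7 windows of *Bdnf* because they alone among the 16 windows hold the E-box CAGCTG, a class of site bound by proneural factors such as ATOH1. It occurs in 13.0% of all windows. The windows are chr1:158362054-158362303 for *Astn1* and chr2:109694159-109694408 for *Bdnf*, both on the plus strand of GRCm38.p6 (RefSeq). Capitals mark the E-box, 56 and 171 bases before the start. Both starts and both E-boxes lie inside the annotated genes, which begin at 158362102 for *Astn1* and 109674700 for *Bdnf*.
Astn1: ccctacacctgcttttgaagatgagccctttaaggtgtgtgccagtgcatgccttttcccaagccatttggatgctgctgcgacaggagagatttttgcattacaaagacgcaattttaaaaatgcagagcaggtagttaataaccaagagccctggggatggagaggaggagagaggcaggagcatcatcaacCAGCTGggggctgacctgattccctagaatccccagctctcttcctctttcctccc
Bdnf: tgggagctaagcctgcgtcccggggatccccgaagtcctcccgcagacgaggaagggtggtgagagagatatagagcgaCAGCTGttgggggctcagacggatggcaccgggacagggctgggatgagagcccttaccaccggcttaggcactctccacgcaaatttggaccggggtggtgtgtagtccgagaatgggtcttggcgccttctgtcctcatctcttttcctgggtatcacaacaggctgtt

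The neurotrophin list held 18 genes of ligands, receptors, sortilins, processing enzymes and adaptors, of which 16 passed the filter on low values and were tested. In tumors against controls, 2 were called higher and 6 lower, against 14.4% and 21.5% of all genes. *Ngfr*, the gene of the p75 receptor that binds all neurotrophins, was at 39.2, 58.8 and 122 TPM in tumors and between 4.66 and 9.78 TPM in controls. It rose by 3.06 on the log2 scale (95% interval 2.36 to 3.76, limma adjusted p = 8.6e-06). Its level exceeded that of *Ntrk2* in every tumor, at a ratio of 2.10 to 5.18, against 0.0366 to 0.0813 in controls. The other gene called higher was the adaptor *Shc1*, with a log2 fold change of 1.41. *Rasgrf1*, an exchange factor for RAS, fell from 140.1 to 6.55 TPM (log2 fold change -4.30), and the sortilin family receptors *Sorcs3*, *Sorcs1* and *Sort1* fell with log2 fold changes of -2.54, -1.49 and -1.45. *Shc3*, a neuronal adaptor, fell by 1.54.

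The list of glial-guided and radial migration held 20 genes, all tested, of which 4 were called higher and 7 lower, against the same shares of all genes. *Dcx*, a microtubule protein of migrating neurons, was at 61.6, 110.0 and 60.4 TPM in the tumors of GB344, GB359 and GB370, and between 1.48 and 2.72 TPM in controls, with a log2 fold change of 4.63 (limma adjusted p = 3.43e-08). *Sema6a*, whose product acts in the switch from tangential to radial migration, rose by 1.87, and *Zeb1*, a repressor that restrains the polarity of GCPs, rose by 1.65. The fourth gene called higher was the polarity gene *Pard3*, at 1.41. The genes called lower included the reelin receptor *Vldlr* (-2.55) and the reelin adaptor *Dab1* (-2.65), and *Tiam1*, a RAC activator (-2.22). For the 4 lists together, 6 of 55 tested genes were called higher and 26 lower, against 14.4% and 21.5% of all genes.

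**Figure D3:**
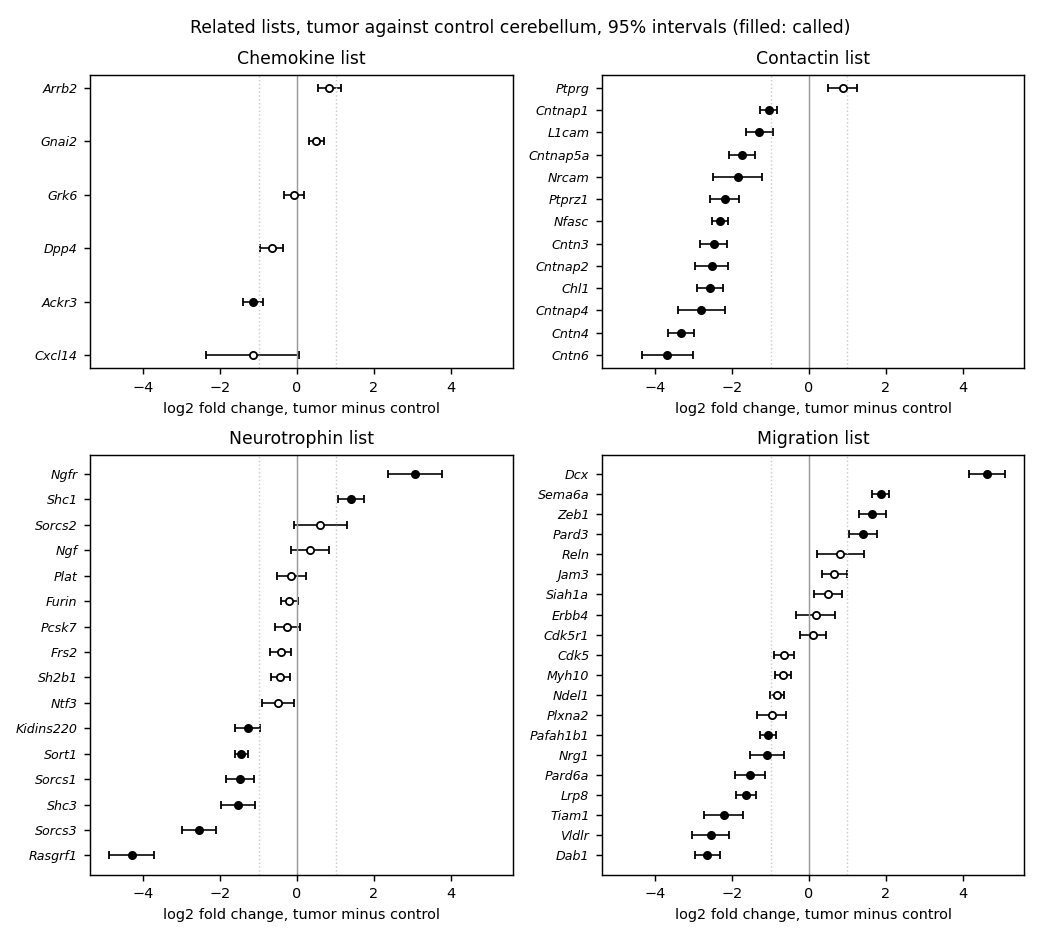
The log2 fold change of log2(TPM + 1), 3 tumors minus 6 controls, for the tested genes of the 4 related lists, with 95% intervals. Filled points were called, and dotted lines mark the fold minimum of 1 in either direction; *Dcx* (4.63) and *Ngfr* (3.06) lie highest.

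Markers of some cell types also differed between tumors and controls, and those of others did not. The summed level of 4 GCP markers was between 594 and 939 TPM in tumors and between 10.6 and 24.7 TPM in controls, with 4 of 4 called higher. In controls *Barhl1* made up 9.89 to 14.1 TPM of this sum, and in GB512 *Mki67* and *Top2a* made up 5.63 and 8.42 TPM. The summed levels of mature granule neuron markers (95.8 to 349 TPM in tumors, 2210.3 to 2803 TPM in controls), Purkinje cell markers (32.3 to 203, 3215 to 5447) and oligodendrocyte markers (72.2 to 266, 3024 to 4745) were lower in tumors, with 4 of 4 called lower in each list. For astrocyte and Bergmann glia markers the ranges were 241 to 450.4 and 1251 to 1528 TPM, with 4 of 5 called lower. Markers of endothelial cells and pericytes summed to 102 to 176 TPM in tumors and 104 to 135 TPM in controls, and those of meningeal fibroblasts to 27.8 to 127 and 47.5 to 55.4 TPM, with 0 of 4 called in each. Microglial markers summed to 165 to 238 and 66.2 to 133 TPM, with 1 of 4 called higher. Choroid plexus markers summed to 5.91 to 13.5 TPM in tumors, with 0 of 4 called, and in controls to 12.1 and 15.4 TPM in GB508 and GB512, 863 TPM in GB361 and 3936 to 5147 TPM in GB517, GB519 and GB520. In bulk tissue fewer cells of a type and less RNA per cell cannot be told apart, and the part of these cell types in the member results was not tested. Against controls GB508 and GB512 alone, a fit added after the data were seen, the log2 fold changes were 4.77 for *Cxcr4*, -0.99 for *Cxcl12* (limma adjusted p = 0.0118, no longer called), -1.64 for *Astn2*, -2.38 for *Cntn1*, -1.85 for *Bdnf* and -2.40 for *Ntrk2*. Without control GB361 and control GB512, where *Mki67* was at 5.63 TPM, and with the 3 controls highest in choroid plexus markers kept, they were 4.92 for *Cxcr4*, -1.18 for *Cxcl12*, -1.60 for *Astn2*, -2.53 for *Cntn1*, -1.90 for *Bdnf* and -2.54 for *Ntrk2*, and all stayed called.

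The comparison of tumor with adjacent cerebellum used tissues of the same mice. The main fit did not pair samples by mouse, and a block for the mouse changed no call of a member. Of 9 members, 0 were called higher, against 4.76% of 15845 genes tested, and 4 were called lower, against 18% of all genes. At an unadjusted limma p under 0.05 the number in either direction was 8 of 9, against 57.1% of all genes. The median log2 fold change was -0.84 over the members and -0.14 over all genes. Tumors did not overlap adjacent cerebella for 8 members, 1 higher and 7 lower, against 23.7% and 38.9% of all genes. For the counts over all genes the scaling mattered, with 755 higher and 2852 lower on the TPM as deposited and 1603 higher and 2192 lower after quantile normalization. The tumor samples are those of the first comparison, so the members are given side by side and not combined. Markers of mature granule neurons, Purkinje cells and oligodendrocytes were also called lower, 4 of 4 in each list, as were 4 of 5 astrocyte and Bergmann glia markers, while 0 of 4 GCP markers were called. The mature granule neuron markers summed to 1701 to 2377 TPM in adjacent cerebellum, the Purkinje markers to 2681 to 3301 TPM, the oligodendrocyte markers to 1463 to 4215 TPM and the astrocyte and Bergmann glia markers to 1192 to 1279 TPM. Their part in the member differences was not tested.

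*Cntn1* was at 122, 133 and 151 TPM in the adjacent cerebellum of GB344, GB359 and GB370, between 3.22-fold and 5.84-fold above the tumor of the same mouse. The log2 fold change of tumor against adjacent was -2.12 (95% interval -2.69 to -1.55, limma adjusted p = 0.000681). *Ntrk2* was at 114, 108 and 126 TPM in adjacent cerebellum, with a log2 fold change of -2.30 (95% interval -2.74 to -1.87, limma adjusted p = 0.000237). On log2(TPM + 1) these members had the largest falls of the 9 in both comparisons, while by the ratio of mean TPM the fall of *Bdnf* against controls, 5.86-fold, was the largest.

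*Astn2* was at 69.4, 82.0 and 87.0 TPM in adjacent cerebellum of GB344, GB359 and GB370, and its log2 fold change was -1.45 (95% interval -1.84 to -1.06, limma adjusted p = 0.000673). *Bdnf* was at 6.19, 5.39 and 8.64 TPM there, and its log2 fold change was -1.48 (95% interval -2.001 to -0.96, limma adjusted p = 0.002). Each of these 4 genes was lower in the tumor of all 3 mice. *Cxcl12*, at 26.2, 29.6 and 34.2 TPM in adjacent cerebellum, and *Astn1*, at 30.1, 29.3 and 33.1 TPM, were also lower in each tumor, with log2 fold changes of -0.84 and -0.79 that were not called (limma adjusted p = 0.0125 and 0.0172).

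*Cxcr4* was at 91.7, 58.9 and 10.1 TPM in the adjacent cerebellum of GB344, GB359 and GB370, so the tumor exceeded it by 1.68-fold, 4.04-fold and 17.7-fold in the same mouse. It was higher in 3 of 3 tumors, but the adjacent samples spread so widely that the log2 fold change of 2.25 (95% interval 0.51 to 3.99, limma adjusted p = 0.0391) was not called. Against the adjacent cerebellum of GB370 alone, the one with the least *Cxcr4*, the tumors alone gave the spread and the lone sample was assumed to vary like them. There the change of *Cxcr4* was 4.09 (limma adjusted p = 0.00706) and was called. In that fit *Astn2* (-1.59), *Cntn1* (-2.28), *Bdnf* (-1.82) and *Ntrk2* (-2.42) kept their direction and were not called (limma adjusted p between 0.0109 and 0.019), and *Cxcl12* was at -1.03, *Astn1* at -0.89, *Cntn2* at -0.46 and *Ntrk3* at -0.86, also not called (limma adjusted p between 0.0724 and 0.46).

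*Cntn2* was at 135, 135 and 139 TPM in adjacent cerebellum, above the tumor of the same mouse in 3 of 3 mice, with a log2 fold change of -0.44 (95% interval -0.85 to -0.03, limma adjusted p = 0.0721). *Ntrk3* was at 93.1, 96.2 and 138 TPM in the adjacent cerebellum of GB344, GB359 and GB370, against 32.7, 97.4 and 134 TPM in their tumors. Tumor and adjacent tissue differed by 2.85-fold in GB344 and by 1.01-fold and 1.02-fold in GB359 and GB370, and the log2 fold change was -0.50 (95% interval -1.67 to 0.67, limma adjusted p = 0.428). Of the related lists, 1 of 6 chemokine, 9 of 12 contactin, 6 of 16 neurotrophin and 5 of 20 migration genes were called lower, against 18% of all genes, and 0 of each called higher. Against adjacent GB370 alone, the median log2 fold change was -2.10 over contactin and -0.76 over chemokine genes. It was -0.51 over neurotrophin, -0.57 over migration and -0.13 over all genes.

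**Figure D4:**
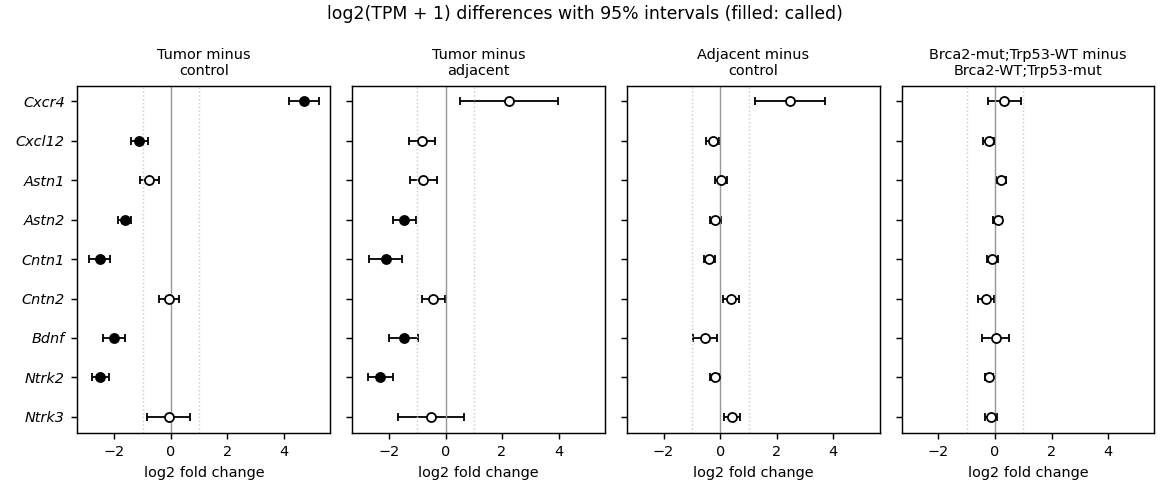
The log2 fold change of log2(TPM + 1) for the 9 members in 4 comparisons, with 95% intervals from limma. Filled points were called, and dotted lines mark a change of 1 in either direction; *Cxcr4* lies at 4.71 against controls and at 2.25, with a wide interval, against adjacent cerebellum.

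The comparison of adjacent with control cerebellum asked whether the tissue beside a tumor differs from tumor-free cerebellum. All adjacent samples came from Brca2-mut;Trp53-mut mice and no control did, so nearness to a tumor and genotype cannot be told apart. Here 0 of 9 members were called, against 0.224% of 16091 genes called higher and 0.0124% called lower, and at an unadjusted limma p under 0.05 the number was 7 of 9, against 34.5% of all genes. The adjacent levels did not overlap the controls for 4 members, namely *Cxcr4*, *Cntn2* and *Ntrk3*, which were higher, and *Cntn1*, which was lower, against 11.7% of all genes higher and 7.64% lower. *Cxcr4* had a log2 fold change of 2.46 (95% interval 1.23 to 3.69, limma adjusted p = 0.0224). It was 14.3-fold, 9.21-fold and 1.57-fold above the mean of the controls in GB344, GB359 and GB370, and the sample of GB370, at 10.06 TPM, lay just above the highest control, at 9.98 TPM. With GB370 alone, where the controls alone give the spread and the lone sample, the lowest in *Cxcr4*, is assumed to vary like them, the change of *Cxcr4* was 0.63 (limma adjusted p = 0.39). Without GB370 it was 3.38 (limma adjusted p = 0.000133) and called.

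Some other genes followed the order of *Cxcr4* over the adjacent samples of GB344, GB359 and GB370, and others did not. *Mki67*, a gene of dividing cells, was at 58.4, 33.3 and 2.72 TPM, *Dcx* at 33.1, 19.4 and 5.91 TPM, and *Ngfr* at 35.2, 18.8 and 9.85 TPM. The GCP marker *Barhl1*, at 86.4, 105.7 and 17.9 TPM, and *Sema6a*, at 34.2, 19.0 and 20.5 TPM, broke the order. The share of all genes in this order was not computed. The summed GCP markers were at 294, 239 and 31.2 TPM, whereas the mature granule neuron markers summed to 1701, 2377 and 2242 TPM. The part of tumor or progenitor cells in the *Cxcr4* level of adjacent cerebellum was not tested.

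The remaining members differed less from controls on the log2 scale than *Cxcr4* did. *Cntn1* had a log2 fold change of -0.39 (limma adjusted p = 0.0224), *Ntrk3* of 0.42 (limma adjusted p = 0.0482) and *Cntn2* of 0.37 (limma adjusted p = 0.0691). *Bdnf* was at -0.54, *Cxcl12* at -0.27, *Ntrk2* at -0.19, *Astn2* at -0.17 and *Astn1* at 0.027, a sign that turned under both other scalings, to -0.043 and -0.075. The widest of these 8 intervals was that of *Bdnf*, from -0.95 to -0.12, and its mean TPM was 1.52-fold lower. For GB370 alone *Ntrk3* was at 0.78 (limma adjusted p = 0.0443), 1.72-fold above the mean of the controls, *Cntn2* at 0.40, *Cntn1* at -0.23, *Bdnf* at -0.20, *Astn1* at 0.13, *Cxcl12* at -0.080, *Ntrk2* at -0.068 and *Astn2* at -0.040, with 0 called. In the ratios adjacent cerebellum lay between tumor and control for *Cntn2* to *Cntn1* (0.921 to 1.10) and for *Ntrk3* to *Ntrk2* (0.820 to 1.09), with no overlap on either side. In GB370 these ratios were 0.921 and 1.09. The ratio of *Cxcr4* to *Cxcl12* was 3.50, 1.99 and 0.29384 in adjacent GB344, GB359 and GB370, against at most 0.29377 in controls. That of *Astn2* to *Astn1* was 2.31 to 2.80 in adjacent cerebellum and overlapped the controls (2.71 to 3.15).

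The comparison of the control genotypes, Brca2-mut;Trp53-WT minus Brca2-WT;Trp53-mut, gave 0 of 9 members called, against 0.0128% of 15575 genes called higher and 0.0449% called lower, with 4 of 9 at an unadjusted limma p under 0.05, against 20.1% of all genes. *Cxcr4* differed by 0.33 (95% interval -0.26 to 0.92, limma adjusted p = 0.507) and *Cntn2* by -0.31 (95% interval -0.59 to -0.03, limma adjusted p = 0.217). *Ntrk2* and *Cxcl12* were lower in each of the 3 Brca2-mut;Trp53-WT cerebella, with log2 differences of -0.21 and -0.22, and *Astn1* was higher in each, with a difference of 0.20 and no overlap. Such separation was seen for 20.3% of genes lower and 6.7% higher. The other 4 members lay between -0.15 and 0.10. Choroid plexus markers summed to 12.1, 15.4 and 863 TPM in the first genotype (lowest, median and highest) and to between 3936 and 5147 TPM in the second. Purkinje cell markers summed to 4423 to 5447 TPM in the first and 3215 to 3470 TPM in the second, and astrocyte and Bergmann glia markers to 1316 to 1528 and 1251 to 1303 TPM, without overlap in either list. Mature granule neuron markers (2210.3 to 2524 and 2479 to 2803 TPM) overlapped. The part of these cell types in the member differences was not tested.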

How the data were processed

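Processed TPM of 12 mouse samples were used, with groups and mouse numbers taken from the sample labels. Per the methods, poly(A)-selected libraries were sequenced at 75 bp, and the authors quantified transcripts with Salmon 0.8.1 on the mm10 knownGene set and summed them to genes. The deposited values are TPM, which sum to between 999793 and 999876 per sample and hold no counts, so read depth is unknown, no counting interval can be given, and precision rests on the spread between mice. Entrez identifiers of 24045 genes matched RefSeq. Every sample column was used (0 unused).

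Tests were run on log2(TPM + 1), on which low genes show smaller fold changes than their TPM ratios. A gene entered a comparison when 3 or more of its samples reached 1 TPM, and was tested, two-sided, with limma 3.58.1 (lmFit, eBayes with trend) in R 4.3.3 and Benjamini-Hochberg adjustment over all tested genes. Each fit held only the groups compared. The limits for a call, 0.01 on the adjusted p and 1 on the size of the log2 fold change, follow the methods of the study. On simulated data with normal noise, 200 genes were changed by 2 on the log2 scale. For tumor against control 191 were recovered with 1 false call, and for tumor against adjacent 146 with 1 false call. The changed genes were drawn only from those of higher mean level. These rates therefore do not cover low genes or changes near the fold minimum.

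The members and the lists were chosen with earlier results of these data known. All members are named, and of each list at most 6 called genes, the largest changes first. *Ptprg*, *Shc1*, *Pard3* and *Cntn5* were named after their values were seen. The genes most like *Cntn1* are not reported here. Tumor and adjacent samples with the same number came from 1 animal, and their deviations from the group means correlated at 0.249, 0.176 and 0.152 in GB344, GB359 and GB370. Alternatives were other pseudocounts (0.1, 0.01), other filters (none, 5 TPM), 2 other scalings, eBayes without trend, all 4 groups in a fit, 1 control genotype, a block for the mouse, calls on an adjusted p under 0.05 alone, and each sample left out. Sets that left out 2 or 4 samples were added after the data were seen. Motifs were searched on both strands with Python 3.11.15.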

Additional observations from a re-analysis of the deposited data

How the results depend on the processing

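Of 675 recomputed member values, 638 kept their direction and their side of the threshold, 10 passed it, 9 no longer did and 18 turned in sign. The cause of these turns was not tested, and 1 of them, *Ntrk3* without the tumor of GB344, had a limma adjusted p of 0.00579. For tumor minus control, *Cntn2* was 0.047 under median-of-ratios scaling, 0.089 under quantile normalization, 0.087 against Brca2-mut;Trp53-WT controls alone and 0.19 against GB508 and GB512 alone, and ranged from -0.17 to 0.12 with a sample left out. *Ntrk3* was 0.037 and 0.076 under the scalings and 0.076 against GB508 and GB512 alone, and ranged from -0.49 to 0.52, and from -0.91 to 0.093 for tumor minus adjacent. *Astn1*, adjacent minus control, was -0.043 and -0.075 under the scalings, -0.075 against Brca2-mut;Trp53-WT controls and between -0.025 and 0.062 with a sample left out. *Bdnf* between control genotypes ranged from -0.16 to 0.26. *Cxcl12*, tumor minus control, was not called under either scaling (-0.998 and -0.96), without the tumor of GB344 (-0.96) or against Brca2-mut;Trp53-WT controls (-0.999) or GB508 and GB512 alone (-0.99).

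For members called in tumor against control, counts were 1 higher and 4 to 6 lower throughout the alternatives run. Over all genes they were 2003 to 5165 higher and 2838 to 6408 lower. In tumor against adjacent, 1 member was called higher with all 4 groups in the fit, for which the count over all genes is given below. At an adjusted p under 0.05 with no fold minimum, 1 was called higher and 6 lower, against 2870 and 5110 of 15845 genes. Changes against adjacent GB370 alone are given above. In adjacent against control, 2 were called higher and 1 lower at an adjusted p under 0.05 with no fold minimum. Over all 16091 genes 1627 were called higher and 897 lower at that setting. With a sample left out, between 0 and 1 members were called higher (1 without adjacent GB370), against 0 to 564 of all genes. The mouse as a block changed no call of a member, with 0 higher and 4 lower, and gave 701 genes higher and 2841 lower.

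Counts over all genes moved more. At an adjusted p under 0.05 with no fold minimum, 5165 were higher and 6408 lower in tumor against control, 2870 and 5110 in tumor against adjacent, 1627 and 897 in adjacent against control, and 6 and 65 between control genotypes. Genes higher in tumor against adjacent numbered 465 with no filter, 1296 and 1603 under the scalings, 1278 with all 4 groups and between 189 and 913 with a sample left out; against adjacent GB370 alone, 500 were higher and 598 lower. In adjacent against control, genes higher numbered 4 with no filter, 10 without a trend, 22 with all 4 groups, 7 and 2 against Brca2-WT;Trp53-mut and Brca2-mut;Trp53-WT controls, 5 for GB370 alone and between 0 and 564 with a sample left out (564 without adjacent GB370). Genes lower there numbered 5 at a pseudocount of 0.01, 0 with no filter or without a trend, 7 and 18 under the scalings, 9 with all 4 groups, 22 against Brca2-WT;Trp53-mut controls, 10 for GB370 alone and between 0 and 29 with a sample left out. Between control genotypes, genes lower numbered 0 at a pseudocount of 0.01, 1 with no filter, at 5 TPM, under quantile normalization or without a trend, 2 under median-of-ratios scaling, 19 with all 4 groups and between 2 and 27 with a sample left out (27 without GB361), and genes higher between 2 and 5. Without read counts, the depth that limits low members such as *Bdnf* cannot be stated, and 3 mice per group set the precision.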

Other observations

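The genes most like the members were found by Pearson's r of log2(TPM + 1) over 12 samples and 16498 genes. This is a description, since the samples share groups, and any gene that separates tumors from controls scores high. *Cxcr4* was most like *Sgol1* (r = 0.996), which protects cohesion of sister chromatids, *Brca1* (0.994), a DNA repair gene, and *Otx1* (0.992), a homeobox gene. *Otx1* was at a mean of 143 TPM in tumors, 26.2 TPM in adjacent cerebellum and 0.445 TPM in controls. *Ntrk2* was most like *Snrk* (0.999). *Astn2* was most like *B4gat1* (0.997), *Astn1* most like *Rab11b* (0.994), *Cxcl12* most like *Ficd* (0.986) and *Bdnf* most like *Ndel1* (0.985). *Cntn2* and *Ntrk3* had looser neighbors, with *Cln3* at 0.967 for *Cntn2* and *Gid8* at 0.961, *Rgag4* at 0.955 and *Otx2* at 0.940 for *Ntrk3*. *Otx2*, a homeobox gene, had means of 20.9, 29.3 and 16.0 TPM in tumor, adjacent and control cerebellum.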
